A study of Mus musculus with 64 samples.

Results

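The cytosolic ribosomal protein genes encode the proteins that, together with the ribosomal RNAs, form the large (Rpl) and small (Rps) subunits of the cytosolic ribosome. Members were the protein-coding genes whose mouse symbol is Rpl or Rps followed by a number, with or without a letter, plus Rplp0, Rplp1, Rplp2 and Rpsa, that reached a mean of at least 1 CPM (the count scaled to a common library size) over all libraries. Pseudogenes and the S6 kinase genes were left out. Of 55487 genes in the count tables, 80 were members, 48 of the large and 32 of the small subunit, on 19 chromosomes. The lowest member was Rpl22l1 with a mean of 41.4 CPM, and the protein-coding genes just outside were the paralogues Rpl39l with 0.648 CPM, Rpl3l with 0.0778 CPM and Rpl10l with 0 CPM.

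Poly(A) RNA was sequenced from bone marrow-derived macrophages (BMMs) of C57BL/6 mice aged 8 to 12 weeks, 4 wild-type mice (Ahr+/+, female C57BL/6JRj) and 4 mice of a line that lacks the aryl hydrocarbon receptor (Ahr-/-) and was back-crossed in-house to the former. BMMs were grown in macrophage colony-stimulating factor from L929 cell supernatant. All cultures received a 6 h pre-exposure. It was to 1 µM of the high-affinity AhR ligand benzo[a]pyrene (BaP), to 10 µM of the low-affinity ligand indole-3-carbinol (I3C), or to the solvent DMSO alone (0.01%). Heat-killed Salmonella Enteritidis (hk S.E.) were then added at 10000000 per ml for 3 h or 20 h, and further DMSO cultures stayed unactivated for the same times. This gave 16 groups of 4 libraries, 64 in all. All cultures of a genotype came from these 4 mice, and the libraries of 1 number were taken to share a mouse.

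Ribosomal protein mRNAs are among the most abundant and most stable transcripts of a cell, and one copy of nearly every protein is needed per ribosome, so that their levels are held near each other. Most of them begin with a C followed by a run of C and T, the 5′ terminal oligopyrimidine (TOP) motif, through which mTORC1 and the RNA-binding protein LARP1 set their translation and stability. Macrophages that meet bacterial products change both transcription and translation widely, and in sequencing of mRNA the ribosomal protein transcripts are counted against the newly made transcripts of activation.

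Stretches near the annotated starts of 7 members are shown here because these members are named in the results on the order within the family. At 20 h Rpl37a, Rps21, Rpl10a and Rpl36a were low and Rpl19, Rps6 and Rpl13a high relative to the other members after activation in Ahr+/+ BMMs. Whether the stretches bear on this order was not tested. Each line gives 30 bases of the transcribed strand from the neighbourhood of the RefSeq transcription start (GRCm38.p6), placed so that it holds the longest run of C and T that opens with C, which is in capitals. Rpl10a and Rpl19 have more than 1 RefSeq start, and the start with the longer run is given.
Rpl37a, chr1:72711276-72711305, plus strand: cattgcgtCCCTTCCTCTTCggacttgggc
Rps21, chr2:180257369-180257398, plus strand: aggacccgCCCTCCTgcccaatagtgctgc
Rpl10a, chr17:28328574-28328603, plus strand: gcgctctgCCTTCTTTCCggtttccgcggc
Rpl36a, chrX:134585673-134585702, plus strand: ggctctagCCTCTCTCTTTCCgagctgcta
Rpl19, chr11:98026905-98026934, plus strand: ggcttgggCTCTCCCCTTCgcagataatgg
Rps6, chr4:86857347-86857376, minus strand: aagtcgggCCTCTTTTTCgtgacgcctccc
Rpl13a, chr7:45128722-45128751, minus strand: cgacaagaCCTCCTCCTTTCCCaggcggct

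The stretches were placed by these runs, so that a run in each line is no result. The run opens at position -2 relative to the annotated start for Rps21, -1 for Rps6, 2 for Rpl13a and -11 for Rpl19. It opens 24, 27 and 17 bases after that start for Rpl37a, Rpl36a and Rpl10a, whose lines do not hold the start itself. A promoter entry was found for 60 of the 80 members. From 20 bases before to 40 bases after the start, a run of 7 or more C or T that opens with C stood on the transcribed strand of 44 of the 60 members (73.3%), against 29% of the 27025 genes with an entry. The letters CTTTC stood in the same window on the transcribed strand of 26 members (43.3%, against 9.01% of all genes) and on the opposite strand of 7 (11.7%, against 8.90%). Some CTTTC matches lie inside the C and T runs. CGGAAG, searched on both strands of all 300 bases, stood at 41 members (68.3%) against 18.8% of all genes. These matches describe the letters of the windows and nothing else.

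Depth ran from 12152500 to 233047000 counts per library (median 24499200). Macrophage markers (10 genes) summed to 18729 to 45336 CPM in each library, whereas the erythroid markers were at 0 and the T and NK cell, dendritic and mast cell markers at 3.64 CPM or less, with neutrophil markers at 16.6 to 218 CPM and B cell markers at up to 101.5 CPM. Fibroblast and stroma markers summed to 0.0579 to 11.03 CPM and moved with the library number in Ahr-/- BMMs: without hk S.E. numbers 1 and 2 were at 0.589 and 0.247 CPM at 3 h and 1.91 and 0.741 CPM at 20 h, and numbers 3 and 4 at 4.07 and 3.66 CPM and at 9.40 and 11.03 CPM. Their part in the results was not tested. Ahrr, a target of AhR, was at 17.2 to 20.7 CPM in Ahr+/+ BMMs after BaP and 4.58 to 6.16 CPM after DMSO at 20 h, and at 1.18 CPM or less in all Ahr-/- libraries with hk S.E. Ahr mRNA itself was still counted in Ahr-/- BMMs and was no check of the deletion. At 20 h, the Ahr-/- libraries numbered 1 and 2 stood apart from those numbered 3 and 4. The Euclidean distance of log2 CPM over all genes tested was 60.3 to 87.3 across this split and at most 43.3 between numbers 3 and 4. Within all other groups it was 42.1 to 81.4. Numbers 1 and 2 were 53.0 to 71.3 apart. Without activation number 1 was as far from number 2 (71.3) as from numbers 3 and 4 (67.5 and 68.2). A like split was seen in Ahr-/- groups with hk S.E. at 3 h. After BaP at 3 h the distance was 79.4 to 81.4 across it, 61.7 between numbers 1 and 2 and 53.7 between numbers 3 and 4. The main counts on Ahr-/- BMMs are therefore also given without numbers 1 and 2, a choice made after the data were seen. The labels also carry library identifiers in 4 series. All 16 Ahr-/- libraries at 20 h belong to a series that holds 1 of the 16 Ahr+/+ libraries at 20 h and 1 of the 16 Ahr-/- libraries at 3 h, so that for the genotypes at 20 h, and for the times in Ahr-/- BMMs, what the series stands for and the group can hardly be told apart. The series were also uneven between activated and unactivated Ahr+/+ libraries. At 20 h all activated DMSO libraries were of 1 series, which held numbers 3 and 4 of the unactivated ones. At 3 h activated DMSO libraries 1 and 2 were of a series that held no unactivated one. In bulk RNA, fewer cells of a type and less RNA per cell cannot be told apart.

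The mean level of the members ran from 42.5 to 978 CPM per kb of the principal transcript with a median of 327 CPM per kb, and 59 of the 80 members were within 2-fold of this median. The highest levels were those of Rplp1, an acidic stalk protein, with 978 CPM per kb, the small-subunit protein Rps29 with 923, Rpl19 with 865, Rps27 with 808 and Rpl10, which completes the peptidyl transferase centre, with 724 CPM per kb. The lowest levels were those of Rpl21 with 42.5, Rpl7l1 with 43.3, Rps15a with 63.6, Rpl22 with 73.1 and Rpl22l1 with 75.0 CPM per kb. The longest principal transcript of each gene was taken as its length, and the levels per kb depend on this choice. For Rps15a it was 5179 bases, where the median of the members was 882, and its mean before this division was 330 CPM. Rpl7l1 and Rpl22l1 are paralogues of Rpl7 and Rpl22, and Rpl7l1 acts in ribosome assembly. Reads that match several places were not counted, and 60 members have pseudogenes by name in the tables, so that a level can miss reads that a pseudogene shares. The same holds for Rpl36a and Rpl36al and for Rps27 and Rps27l, which are near-identical pairs, and their levels are uncertain to that extent.

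Together, the 80 members took 1.68% to 4.11% of all gene counts in a library. In unactivated Ahr+/+ BMMs at 3 h the share was 2.88, 2.69, 3.26 and 3.10% in the 4 libraries, and after hk S.E. it was 2.21, 2.15, 2.33 and 2.29%. At 20 h the unactivated libraries were at 3.30, 3.28, 3.41 and 3.85% and the activated ones at 1.96, 1.98, 2.26 and 2.40%. All activated libraries were below all unactivated ones at both times, and the share with hk S.E. was 0.753 times that without at 3 h and 0.621 times at 20 h. Marker genes moved as well: at 20 h the macrophage markers summed to 35244, 37653, 38519 and 37966 CPM without and 19292, 22245, 23929 and 21653 CPM with hk S.E., and the B cell markers to 70.7 to 79.5 CPM and 0.860 to 1.09 CPM. Their part in the share and in the results at 20 h was not tested.

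For Ahr-/- BMMs the share at 3 h was 2.84, 3.56, 2.97 and 3.00% without and 2.43, 2.52, 2.07 and 2.16% with hk S.E., a ratio of 0.742 with no overlap. At 20 h it was 4.11, 3.91, 3.00 and 3.11% without and 3.24, 3.15, 2.16 and 2.16% with hk S.E. Here the groups overlapped, although each activated library was below the unactivated library of the same number, and the ratio was 0.758. The libraries numbered 1 and 2 were the high ones on both sides. Their share of mitochondrially encoded counts was the lower one, 1.15 and 0.902% against 1.88 and 1.77% without hk S.E., and 0.647 and 0.695% against 1.10 and 1.26% with it. Their macrophage markers summed to 30323 and 34737 CPM with hk S.E., against 21808 and 22263 CPM in numbers 3 and 4. The part of these measures in the spread was not tested.

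**Figure D1:**
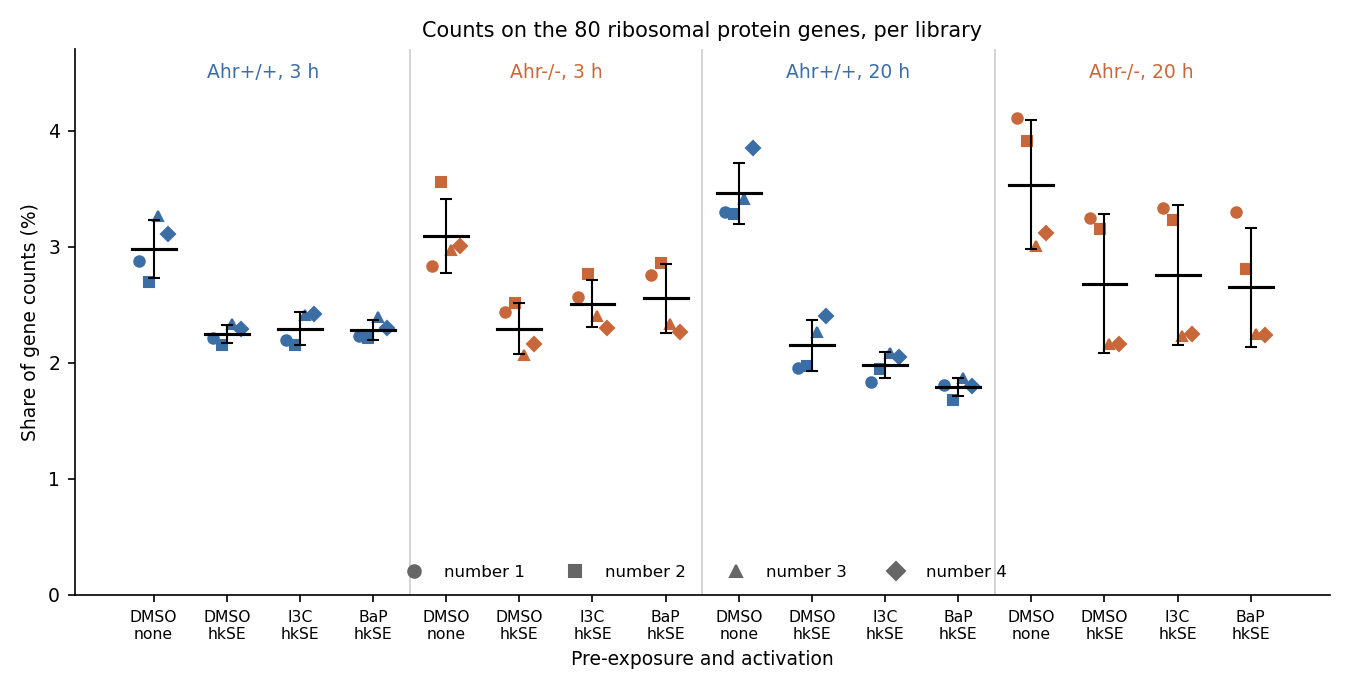
Share of all gene counts taken by the 80 members (y axis, percent, starting at 0) in each of the 64 libraries, by group (x axis, pre-exposure over activation). Points are libraries with a shape for each replicate number, long bars the group means and error bars 1 SD (n = 4). Activated Ahr+/+ libraries lie below the unactivated ones at both times, and in the 20 h Ahr-/- groups numbers 1 and 2 lie above numbers 3 and 4.

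The first question was how activation with hk S.E. changed the members relative to other genes. At 3 h the members were high relative to most genes although their share of all counts was low. With TMM scaling, which sets the libraries by the bulk of genes, 18 members rose in Ahr+/+ BMMs and 0 fell (edgeR's quasi-likelihood test, adjusted p below 0.01), against 24.2% of the 14537 genes tested that rose and 32.3% that fell, so that the share of members that rose, 18 of 80, was near the background. With total counts as the scale the direction turned and 1 rose and 50 fell, where 12.4% of all genes rose and 59.1% fell. The median log2 fold change of the members was 0.27 and that of all genes -0.10 with TMM, and -0.40 and -0.78 with total counts. The members therefore stood 0.37 above the median gene. A change of scale shifts all genes by nearly the same amount, so that this distance is alike on both scales by construction. With DESeq2 30 members rose and 0 fell, against 26.6% of all genes that rose, and with the replicate number as a block 41 rose and 0 fell, against 27.4%.

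Without AhR, 12 members rose and 0 fell at 3 h with TMM, against 25.5% and 31.8% of all genes, whereas with total counts 1 rose and 52 fell, against 12.8% and 59%. The median was 0.24, against -0.08 for all genes, and with total counts -0.43 against -0.75, or 0.31 above the median gene. With the block 37 rose and 0 fell, against 28.2% of all genes. Without the libraries numbered 1 and 2, 11 rose and 0 fell, and the median was 0.18.

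Rpl24, a large-subunit protein at the subunit interface, stood out at 3 h. It was at 51.4, 53.8, 61.5 and 57.0 CPM in unactivated Ahr+/+ libraries and at 107, 110, 117 and 113 CPM with hk S.E. The Ahr-/- libraries were at 52.8, 59.3, 58.4 and 62.4 CPM without and at 112, 105, 109 and 121 CPM with hk S.E. The groups did not overlap in either genotype. Rpl24 rose by a log2 fold change of 1.00 (SE 0.09, adjusted p = 3.04e-14) in Ahr+/+ and 0.94 (SE 0.09, adjusted p = 2.03e-13) in Ahr-/- BMMs, and it was the member that also rose with total counts, by 0.33 and 0.27. At 20 h its log2 fold change was 0.12 (adjusted p = 0.253) in Ahr+/+ BMMs and it rose by 0.35 (SE 0.09, adjusted p = 0.000637) in Ahr-/- BMMs, where it had 0.05 with total counts and 0.21 (adjusted p = 0.112) without numbers 1 and 2.

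The members next to Rpl24 at 3 h differed between the scales. In Ahr+/+ BMMs Rps24, Rps3a1 and Rps20, all of the small subunit, rose by log2 fold changes of 0.57, 0.50 and 0.46 with TMM and had values of -0.11, -0.17 and -0.22 with total counts. Among Ahr-/- BMMs Rpl27 and Rps3a1 rose by 0.44 and 0.39 and had values of -0.23 and -0.28 with total counts. The lowest member in both genotypes was Rpl13a, which is also known outside the ribosome as part of a translational silencer in interferon-treated myeloid cells, with -0.16 (adjusted p = 0.579) and -0.08 (adjusted p = 0.774).

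At 20 h the members were low relative to other genes in Ahr+/+ BMMs. With TMM, 33 members fell and 1 rose, against 28.7% and 29.9% of all genes, and with total counts 66 fell and 0 rose, against 43.8% and 18.3%. The median log2 fold change was -0.32, against 0.00 for all genes, and with total counts -0.69 against -0.37. Their median thus lay 0.32 below that of all genes. With the block 49 fell and 3 rose, against 32.3% and 33.7%.

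Without AhR, 5 members fell and 3 rose at 20 h, against 26% and 28.3% of all genes. The median was -0.08 and that of all genes 0.02, and with total counts -0.39 and -0.28. With the block 21 fell and 9 rose, against 29.5% and 32.5%, and with total counts 46 fell and 0 rose, against 38.6% and 17.7%. Without the libraries numbered 1 and 2, 25 fell and 1 rose, against 25.6% and 28.3% of all genes, and the median was -0.19.

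**Figure D2:**
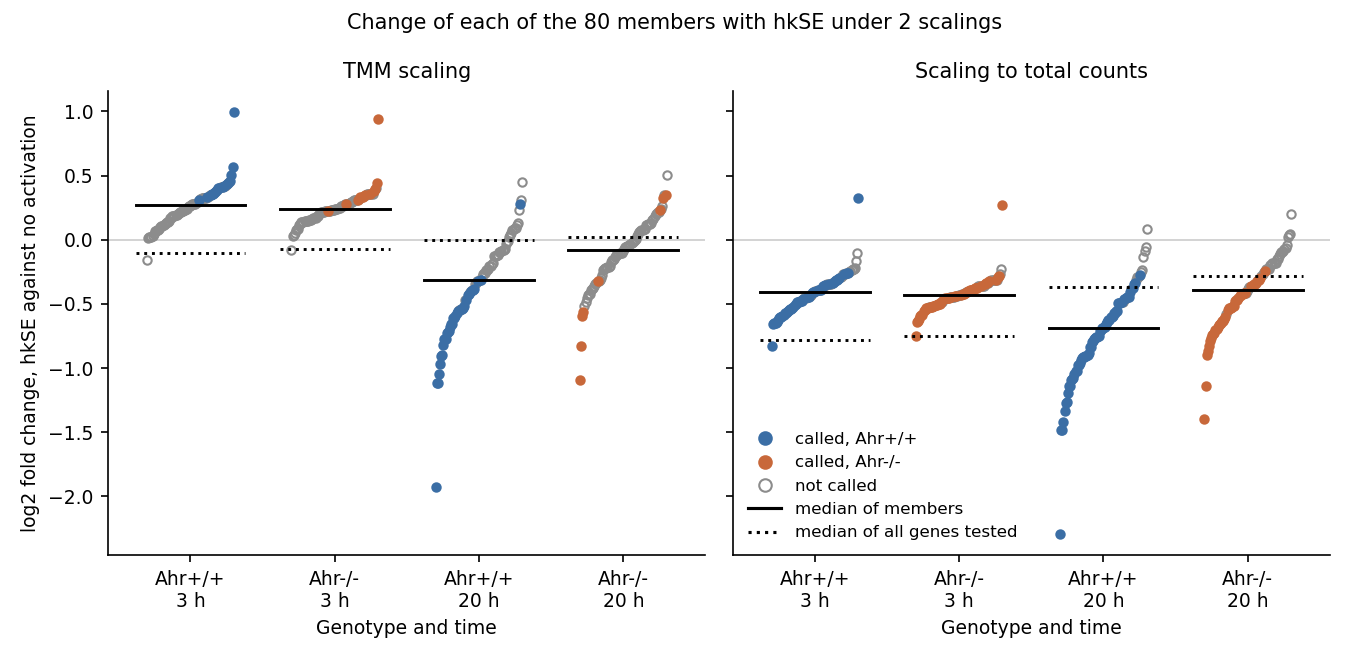
Log2 fold change with hk S.E. against no activation (y axis) for the 80 members, in order of size, in each genotype and time (x axis), with TMM scaling in the left panel and total counts in the right one. Filled points passed the test and open ones did not, the solid line is the median of the members and the dotted one that of all 14537 genes. At 3 h most members lie above 0 with TMM and below 0 with total counts, and their median is above the dotted line. At 20 h in Ahr+/+ BMMs the median of the members is below that line. The distance between the solid and the dotted line is alike in both panels by construction.

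Rpl37a, a zinc-binding protein of the large subunit, had the furthest decrease at 20 h. Its level was 293, 290, 283 and 339 CPM in unactivated Ahr+/+ libraries and 73.5, 70.0, 85.3 and 87.5 CPM with hk S.E. The Ahr-/- libraries were at 401, 352, 236 and 243 CPM without and at 170, 205, 103 and 102 CPM with hk S.E. All activated libraries were below all unactivated ones in both genotypes. Rpl37a fell, with a log2 fold change of -1.93 (SE 0.20, adjusted p = 1.75e-12), that is 3.81-fold, in Ahr+/+ and of -1.09 (SE 0.20, adjusted p = 2.56e-06), 2.13-fold, in Ahr-/- BMMs. At 3 h the values were 0.22 (adjusted p = 0.335) and 0.22 (adjusted p = 0.314).

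Other members with low values at 20 h were Rpl36a, Rps21, Rpl10a and Rps26 in Ahr+/+ BMMs, whose log2 fold changes were -1.12, -1.11, -1.05 and -0.97 (largest adjusted p of these 3.55e-06 for Rps21). In Ahr-/- BMMs Rps21 fell by 0.83 (adjusted p = 0.000342), Rps15 by 0.59 (adjusted p = 0.00515) and Rps16 by 0.56 (adjusted p = 0.00818). Rps15 and Rps16 did not pass in every fit that left out 1 library (adjusted p up to 0.0451 and 0.0516). Without numbers 1 and 2 these 3 fell by 0.95, 0.66 and 0.71 (largest adjusted p 3.79e-06 for Rps15). In the fit on all libraries, Rpl36a had -0.45 (adjusted p = 0.0200), Rpl10a -0.48 (adjusted p = 0.0141) and Rps26 -0.43 (adjusted p = 0.0224). At the other end, Rpl7l1 rose by 0.28 (SE 0.06, adjusted p = 4.81e-05) in Ahr+/+ and 0.23 (SE 0.06, adjusted p = 0.000682) in Ahr-/- BMMs with TMM, but had -0.09 and -0.08 with total counts. Rpl22l1 had the highest values, 0.45 (adjusted p = 0.0256) and 0.51 (adjusted p = 0.0135). Rpl19 rose by 0.33 (adjusted p = 0.00962) in Ahr-/- BMMs with TMM, had 0.02 with total counts and did not pass without numbers 1 and 2 (0.25, adjusted p = 0.0233).

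The second question was whether the family kept its internal proportions. For this, libraries were scaled to the summed counts of the members, so that a value no longer depends on the scale of the other genes and gives a member's change relative to the family. At 3 h, 4 members in Ahr+/+ and 3 in Ahr-/- BMMs passed the test. Rpl24 and Rps24 rose and Rpl13a and Rpsa fell relative to the family in Ahr+/+ BMMs, and Rpl24 and Rpl27 rose and Rpsa fell in Ahr-/- BMMs. With the block 13 and 5 members passed, and with DESeq2 9 and 5. Without numbers 1 and 2, Rpsa did not pass in Ahr-/- BMMs (-0.20, adjusted p = 0.0112), while Rpl13a (adjusted p = 0.00118) and Rps15 (adjusted p = 0.00492) were lower. With this scale 15.4% of all genes rose and 38.9% fell in Ahr+/+ and 16.7% and 37.1% in Ahr-/- BMMs. At 20 h, 19 members rose and 18 fell in Ahr+/+ BMMs (37.8% and 18.8% of all genes), and 16 rose and 13 fell in Ahr-/- BMMs (27.7% and 20.9%). Without the Ahr-/- libraries numbered 1 and 2, 16 rose and 14 fell there (33.5% and 18.6%).

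The order of the members was alike in both genotypes, which have separate controls. Over the 80 members, the log2 fold changes relative to the family in Ahr+/+ and Ahr-/- BMMs had a Pearson correlation of 0.92 and a Spearman correlation of 0.91 at 20 h, and 0.87 and 0.81 at 3 h, which is a description across genes of one pathway and not over independent replicates. At 20 h, 24 members were called in the same direction in both genotypes, 14 higher and 10 lower, and 0 in opposite directions. Without the Ahr-/- libraries numbered 1 and 2, 23 were called in the same direction and 0 in opposite ones, and the Pearson correlation was 0.93. The 10 lower ones were Rpl10a, Rpl13, Rpl36a, Rpl37a, Rps15, Rps16, Rps21, Rps26, Rps28 and Rpsa, and the 14 higher ones included Rpl5, Rpl7l1, Rpl19, Rpl24, Rps3, Rps6 and Rps24. Large and small subunits did not part: the median relative to the family was -0.02 for Rpl and 0.03 for Rps genes in Ahr+/+ and 0.03 and -0.01 in Ahr-/- BMMs at 20 h.

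**Figure D3:**
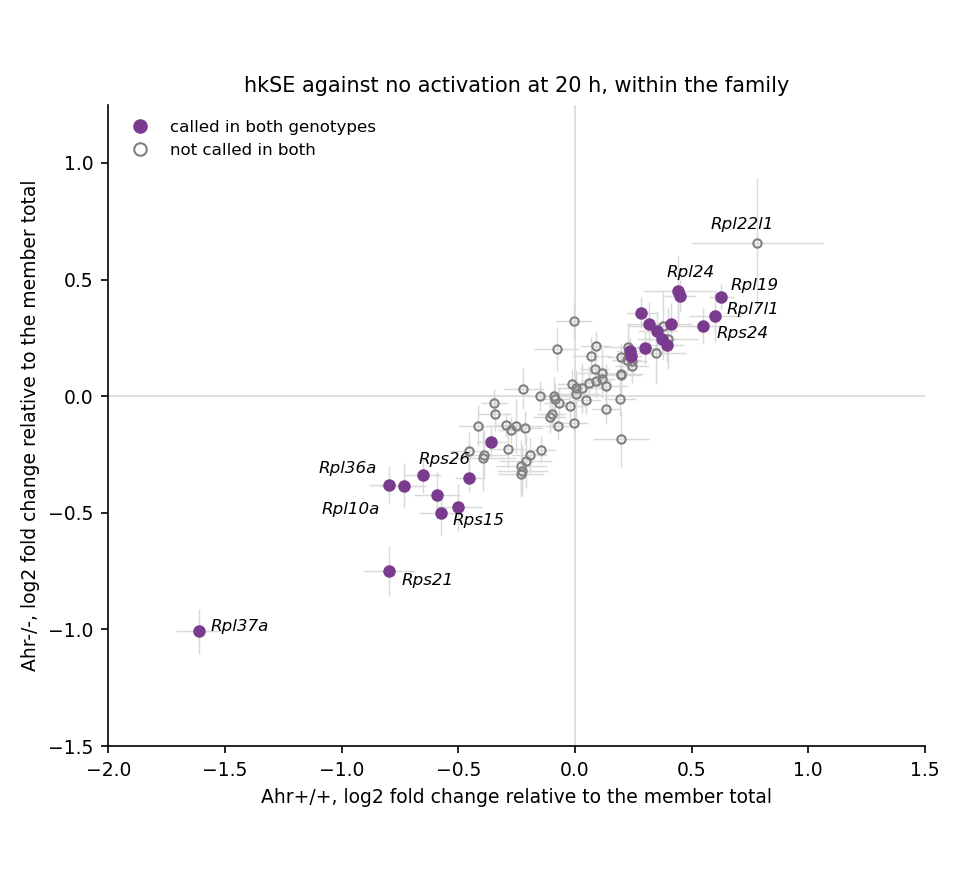
Log2 fold change with hk S.E. at 20 h relative to the member total in Ahr+/+ (x axis) and Ahr-/- BMMs (y axis), one point per member with bars of 1 SE. Filled points are the 24 members that passed the test in both genotypes. The points run from Rpl37a at -1.61 and -1.01 to members above 0 such as Rpl19 at 0.63 and 0.43, with a Pearson correlation of 0.92.

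Within the family, Rpl37a made up 1.19, 1.15, 1.08 and 1.12% of member counts in unactivated Ahr+/+ libraries at 20 h and 0.381, 0.356, 0.391 and 0.359% with hk S.E. For Ahr-/- BMMs the shares were 1.28, 1.20, 1.05 and 1.03% and then 0.553, 0.699, 0.510 and 0.504%. The activated groups were far below the unactivated ones, and those of the genotypes did not overlap with each other either. The decrease relative to the family was 3.05-fold (log2 fold change -1.61, SE 0.10, adjusted p = 1.19e-20) in Ahr+/+ and 2.01-fold (-1.01, SE 0.10, adjusted p = 3.31e-13) in Ahr-/- BMMs. At 3 h the Ahr+/+ libraries were at 1.01, 1.03, 1.12 and 0.932% without and 0.992, 0.979, 0.957 and 1.03% with hk S.E., so that they overlapped.

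Rps21, a small-subunit protein, made up 0.595, 0.591, 0.562 and 0.561% of member counts without and 0.356, 0.321, 0.325 and 0.328% with hk S.E. at 20 h in Ahr+/+ BMMs. The Ahr-/- libraries had 0.572, 0.652, 0.492 and 0.5004% and 0.357, 0.370, 0.326 and 0.266%. No activated library reached an unactivated one, and Rps21 fell 1.74-fold (adjusted p = 6.62e-09) and 1.68-fold (adjusted p = 3.53e-08) relative to the family. Rpl10a, which lies at the L1 stalk where the used transfer RNA leaves, made up 0.812, 0.747, 0.658 and 0.634% without and 0.434, 0.469, 0.387 and 0.423% with hk S.E. in Ahr+/+ BMMs. Relative to the family it fell, with a log2 fold change of -0.73 (adjusted p = 2.73e-09) in Ahr+/+ and -0.38 (adjusted p = 0.000564) in Ahr-/- BMMs. Rpl36a fell by 0.80 (adjusted p = 4.01e-12) and 0.38 (adjusted p = 9.57e-05).

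Rpl19, part of a bridge between the subunits, made up 1.98, 2.098, 2.095 and 2.09% of member counts without and 3.22, 3.14, 3.24 and 3.17% with hk S.E. at 20 h in Ahr+/+ BMMs. The Ahr-/- libraries had 1.88, 1.98, 2.06 and 2.04% and 2.60, 2.49, 2.81 and 2.80%. The groups did not overlap, and Rpl19 rose 1.55-fold (adjusted p = 3.17e-15) and 1.34-fold (adjusted p = 8.57e-10) relative to the family. Rps6, the small-subunit protein phosphorylated by the S6 kinases, rose by a log2 fold change of 0.45 (adjusted p = 1.25e-07) and 0.43 (adjusted p = 4.48e-07), and Rpl5, which with Rpl11 and the 5S RNA binds Mdm2 when ribosome assembly fails, by 0.32 (adjusted p = 0.00391) and 0.31 (adjusted p = 0.00556). Rpl11 did not pass with -0.21 (adjusted p = 0.0101) and -0.14 (adjusted p = 0.112).

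Rpl24 and Rpl13a had different courses over time. Rpl24 made up 0.234, 0.259, 0.244 and 0.228% of member counts in unactivated and 0.395, 0.397, 0.411 and 0.399% in activated Ahr+/+ libraries at 3 h, and 0.215, 0.243, 0.225 and 0.246% and 0.313, 0.324, 0.322 and 0.304% at 20 h. Activated libraries were above unactivated ones at both times, by 1.66-fold (adjusted p = 3.35e-05) and 1.36-fold (adjusted p = 0.00848) relative to the family. Rpl13a made up 0.311, 0.335, 0.322 and 0.285% without and 0.240, 0.234, 0.229 and 0.233% with hk S.E. at 3 h, and 0.364, 0.360, 0.319 and 0.315% without and 0.486, 0.438, 0.440 and 0.426% with hk S.E. at 20 h. It was thus below the unactivated libraries at 3 h (-0.42, adjusted p = 0.00459) and above them at 20 h (0.40, adjusted p = 0.00687), and the difference between the times passed the test in Ahr+/+ (0.82, SE 0.19, adjusted p = 0.000151) and in Ahr-/- BMMs (0.57, SE 0.19, adjusted p = 0.00816). In Ahr-/- BMMs alone the single times did not pass (-0.32, adjusted p = 0.0303, and 0.25, adjusted p = 0.103), but both did without numbers 1 and 2 (-0.37, adjusted p = 0.00118, and 0.32, adjusted p = 0.00443).

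**Figure D4:**
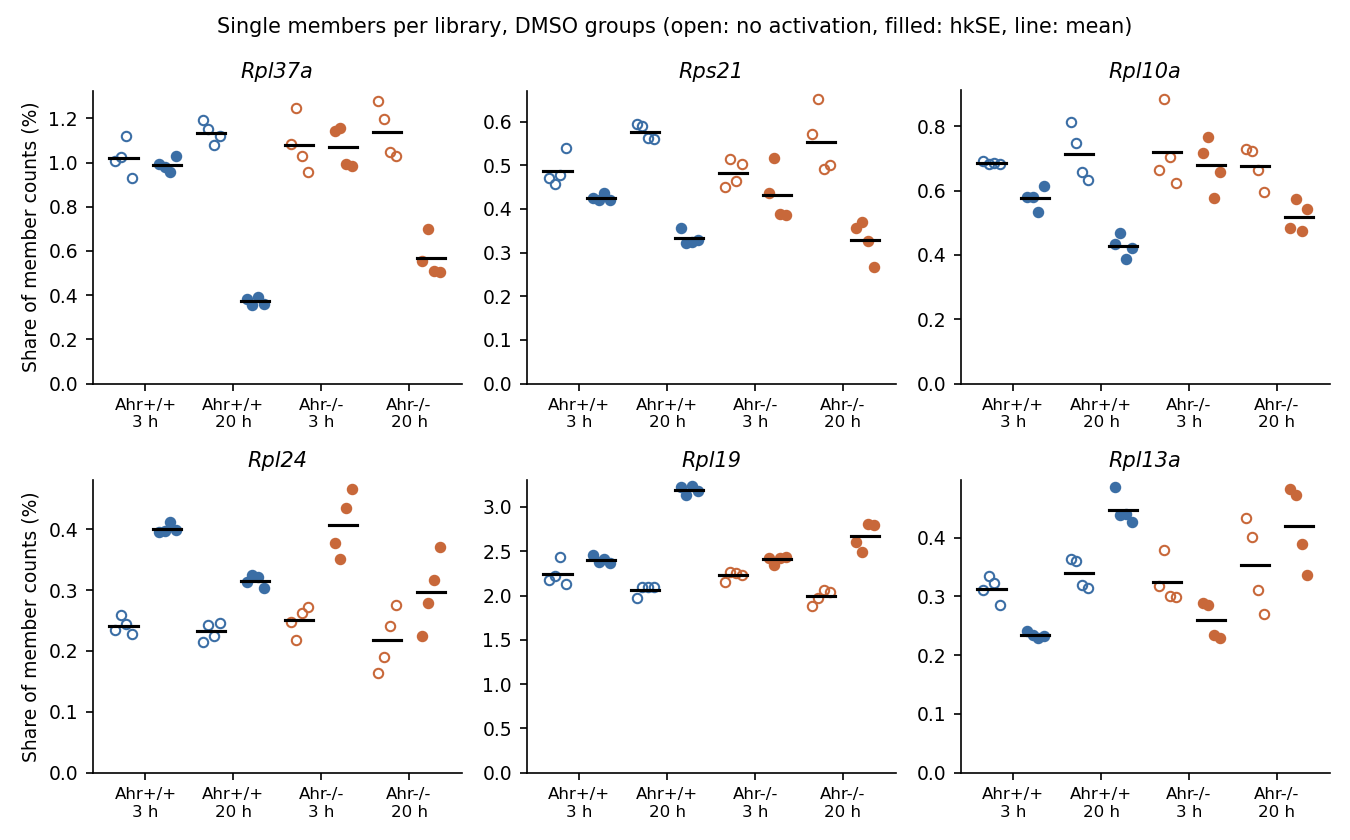
Share of the summed member counts (y axes, percent, starting at 0, a scale for each panel) of 6 members in each DMSO library, by genotype and time (x axis). Open points are unactivated libraries, filled points libraries with hk S.E., and bars the means (n = 4). Rpl37a, Rps21 and Rpl10a are lower with hk S.E. at 20 h, Rpl19 is higher, Rpl24 is higher at both times in Ahr+/+ BMMs, and Rpl13a is lower at 3 h and higher at 20 h in Ahr+/+ BMMs.

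The position of a member in this order was weakly related to simple features. Across the 80 members, the change relative to the family at 20 h was set against the log2 length of the longest principal transcript. The Pearson correlation was 0.31 in Ahr+/+ and 0.33 in Ahr-/- BMMs. The Spearman correlations with length were 0.25 and 0.29, so that shorter transcripts tended to have lower values. With log2 GC content the Pearson correlations were -0.24 and -0.22. At 3 h the Pearson correlations were 0.04 and 0.02 for log2 length and -0.44 and -0.21 for log2 GC content, and log2 mean CPM had values near 0 throughout. The members share libraries, so these are descriptions only.

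Activated cultures at 20 h and at 3 h were then compared directly. In Ahr+/+ BMMs with hk S.E. 39 members were lower at 20 h than at 3 h and 0 higher, against 26.4% and 33% of all genes, with a median of -0.37 against 0.08 for all genes. With total counts 12 fell and 4 rose, against 18.5% and 44.4% of all genes, and the median was -0.04 against 0.40 for all genes, or 0.44 below the median gene. The lowest values were those of Rpl37a (-1.80), Rpl36a (-1.15), Rps4x (-0.98), Rps26 (-0.95) and Rps28 (-0.90), and Rpl13a had the highest value with 0.54. In Ahr-/- BMMs 9 members fell and 0 rose with TMM, against 24.3% and 31.7% of all genes. With total counts the direction turned and 21 rose and 2 fell, against 46.9% and 16.6%. Without the libraries numbered 1 and 2, 49 fell and 1 rose with TMM, against 24.1% and 30%.

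Without hk S.E. the share of all counts in Ahr+/+ BMMs was higher in all 4 libraries at 20 h than in any at 3 h, 1.16 times on the mean, and in Ahr-/- BMMs it was 1.14 times with overlapping groups and higher in 4 of 4 pairs of the same number. The median log2 fold change was 0.19 in each genotype, and 0.03 in Ahr-/- BMMs without numbers 1 and 2. In edgeR's test 0 members passed in either genotype, where 6.07% and 6.98% of all genes passed. An unadjusted p below 0.05 was found for 15 members in Ahr+/+ and 13 in Ahr-/- BMMs (18.8% and 16.2% of members), against 24.2% and 24.5% of all genes. DESeq2 called 1 member in Ahr+/+ BMMs, where 4.33% of all genes rose, and 0 in Ahr-/- BMMs. With the block 13 rose in Ahr+/+ and 6 in Ahr-/- BMMs, against 7.15% and 6.79% of all genes.

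The difference between the response at 20 h and at 3 h was tested as an interaction. In Ahr+/+ BMMs it passed for 44 members, all lower at 20 h, against 21.3% of all genes lower, with a median difference of -0.60, and with total counts for 12 lower and 1 higher, against 15.5% and 37.2% of all genes. Without AhR it passed for 8, all lower, against 19.4% of all genes, with a median of -0.37. With total counts it passed there for 1 lower and 1 higher, against 13.6% and 39.2%, and without the libraries numbered 1 and 2 for 30, all lower, against 19.5%. Relative to the median gene, the difference was -0.69 in Ahr+/+ and -0.46 in Ahr-/- BMMs. Rpl37a had a difference of -2.14 (SE 0.28, adjusted p = 1.95e-09) in Ahr+/+ and -1.32 (SE 0.27, adjusted p = 5.00e-05) in Ahr-/- BMMs.

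The next question was whether loss of AhR changed the members. In unactivated BMMs edgeR's test called 0 members at 3 h and 0 at 20 h, where 1.21% and 0.702% of all genes passed, and the medians were 0.01 and 0.01. An unadjusted p below 0.05 was found for 1 and 4 members, against 9.99% and 12.5% of all genes. In activated BMMs at 3 h it called 0 members, where 2.83% of all genes passed, and 2 members had an unadjusted p below 0.05, against 19.1% of all genes. Without the libraries numbered 1 and 2, 14 members were lower in unactivated Ahr-/- BMMs at 20 h, against 5.48% of all genes, with a median of -0.21.

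In activated BMMs at 20 h, 7 members were higher in Ahr-/- than in Ahr+/+ BMMs and 0 lower, against 5.06% and 7.39% of all genes, with a median of 0.23. They were Rps4x with 0.54 (adjusted p = 2.7e-05), Rpl36a with 0.81, Rpl37a with 0.87, Rpl14 with 0.43, Rpl39 with 0.43, Rpl3 with 0.36 and Rpl12 with 0.42 (adjusted p = 0.00988). This count rests on the libraries that stand apart. Without the Ahr-/- libraries numbered 1 and 2, 2 members were higher, Rpl37a with 0.37 (adjusted p = 0.00131) and Rps4x with 0.30 (adjusted p = 0.00849), 5 were lower, and the median was -0.10, where 11% of all genes were higher and 11.3% lower. Leaving out only the activated Ahr-/- library numbered 2 left 1 member, and 3 passed with the identifier series as a covariate.

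Rps4x, the X-linked S4 protein of the small subunit, was at 349, 385, 382 and 468 CPM in activated Ahr+/+ libraries at 20 h and at 665, 660, 449 and 522 CPM in Ahr-/- ones. The groups overlapped, since the third Ahr-/- library was below the highest Ahr+/+ one. Rpl37a was above the Ahr+/+ range of 70.0 to 87.5 CPM in all 4 Ahr-/- libraries, whose lowest was 102 CPM.

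The change with hk S.E. was compared between the genotypes as an interaction. At 3 h 0 members passed in edgeR's test, where 0.0138% of all genes passed, 0 had an unadjusted p below 0.05, against 5.96% of all genes, and DESeq2 also called 0 members. At 20 h 1 member passed, Rps2, where 4.42% of all genes passed. Rps2, a small-subunit protein near the messenger entry channel, was at 363, 345, 353 and 381 CPM without and 271, 268, 288 and 331 CPM with hk S.E. in Ahr+/+ BMMs, so that all activated libraries were lower. The Ahr-/- libraries were at 304, 272, 281 and 269 CPM and 366, 403, 267 and 294 CPM, where numbers 1 and 2 were higher and 3 and 4 within the unactivated range or near it. The difference was 0.56 (SE 0.14, adjusted p = 0.00581), and it was 0.35 (adjusted p = 0.0686) without those libraries. Relative to the family, Rpl37a had a difference of 0.60 (SE 0.14, adjusted p = 0.00374), against 0.365% of all genes higher on that scale, as it fell further in Ahr+/+ than in Ahr-/- BMMs, and this was 0.57 (adjusted p = 0.00046) without numbers 1 and 2. Without numbers 1 and 2, Rpl37a with 0.70 and Rpl10a with 0.55 passed with TMM scaling, against 1.69% of all genes higher.

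BaP and I3C, each against DMSO in activated BMMs, were tested last. In edgeR's test 0 members passed in any of the 8 comparisons. Of all genes, 0.0482% passed with BaP at 3 h and 0.234% at 20 h in Ahr+/+ BMMs, and 0.0275% and 0.0138% in Ahr-/- BMMs. With I3C these were 0.131% and 0.509% in Ahr+/+ and 0.0206% and 0.206% in Ahr-/- BMMs. Without the Ahr-/- libraries numbered 1 and 2, 0 members passed in the 4 Ahr-/- comparisons and 6, 1, 20 and 1 had an unadjusted p below 0.05 with BaP at 3 h and 20 h and I3C at 3 h and 20 h, against 4.09%, 1.51%, 7.64% and 4.66% of all genes. BaP in Ahr+/+ BMMs at 20 h had the lowest values: the log2 fold change was negative for 80 of 80 members with a median of -0.25, where the median of all genes was 0.00. There 25 members had an unadjusted p below 0.05 (10.4% of all genes), and 1 with I3C (5.72% of all genes). With the block 8 members fell, against 1.02% of all genes. DESeq2 called 1, where 0.371% of all genes fell. Those that fell with the block included Rpl3, Rpl4, Rpl10a, Rpl12 and Rpl27 of the large subunit.

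The share of all counts in Ahr+/+ BMMs at 20 h was 1.81, 1.68, 1.87 and 1.80% after BaP and 1.84, 1.95, 2.08 and 2.05% after I3C, against 1.96, 1.98, 2.26 and 2.40% after DMSO. All BaP libraries were below all DMSO libraries, whereas those with I3C overlapped with DMSO and were lower in 4 of 4 pairs of the same number. The ratios were 0.833 for BaP and 0.921 for I3C. Doses of BaP and I3C differed and their values are given side by side without a test between them.

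Rpl3, a core protein of the peptidyl transferase region, had the smallest adjusted p. It was at 277, 326, 376 and 435 CPM after DMSO, at 239, 219, 293 and 288 CPM after BaP and at 267, 296, 359 and 357 CPM after I3C. Each BaP library was below the DMSO library of its number, but the groups overlapped. The log2 fold change with BaP was -0.44 (SE 0.10, adjusted p = 0.0119), and with the block the adjusted p was 1.4e-05. In unactivated Ahr+/+ BMMs at 20 h Rpl3 was at 534, 540, 592 and 671 CPM. Over all members, groups without overlap were found for 31 lower members with BaP, against 5.01% of all genes, and for 2 lower members with I3C, against 3.66%.

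Without AhR at 20 h the medians were -0.01 with BaP and 0.06 with I3C, and 2 and 0 members had an unadjusted p below 0.05, against 1.77% and 4.62% of all genes. The share was 3.30, 2.81, 2.25 and 2.24% after BaP, 3.33, 3.23, 2.23 and 2.24% after I3C and 3.24, 3.15, 2.16 and 2.16% after DMSO. The difference in the effect of BaP between the genotypes had a median of 0.24 over the members, and 0 members and 0% of all genes passed in edgeR's test, with 7 members at an unadjusted p below 0.05, against 4.67% of all genes. Without the libraries numbered 1 and 2 the median was 0.31, 0 members passed and 51 had an unadjusted p below 0.05, against 10.8% of all genes. With the block Rpl3 passed (0.47, adjusted p = 0.00443), where 0.117% of all genes were higher. The difference in the effect of BaP between 20 h and 3 h in Ahr+/+ BMMs had a median of -0.27, and 0 members and 0% of all genes passed in edgeR's test, with 10 at an unadjusted p below 0.05, against 5.05% of all genes.

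At 3 h, medians with BaP and I3C were 0.02 and 0.06 in Ahr+/+ BMMs and 0.16 and 0.16 in Ahr-/- BMMs. There 0 and 0 members had an unadjusted p below 0.05 in Ahr+/+ (2.68% and 5.12% of all genes) and 3 and 1 in Ahr-/- BMMs (5.93% and 5.92%). In Ahr-/- BMMs the log2 fold change was positive for 73 and 77 of 80 members, with medians of all genes of 0.01 and 0.02. In Ahr+/+ BMMs it was positive for 54 and 72. The share of all counts in Ahr-/- BMMs was 1.11 times that after DMSO with BaP and 1.09 times with I3C. It was higher in 4 of 4 pairs of the same number each, with overlapping groups. In Ahr+/+ BMMs both ratios were 1.02, with 4 and 2 of 4 pairs higher.

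**Figure D5:**
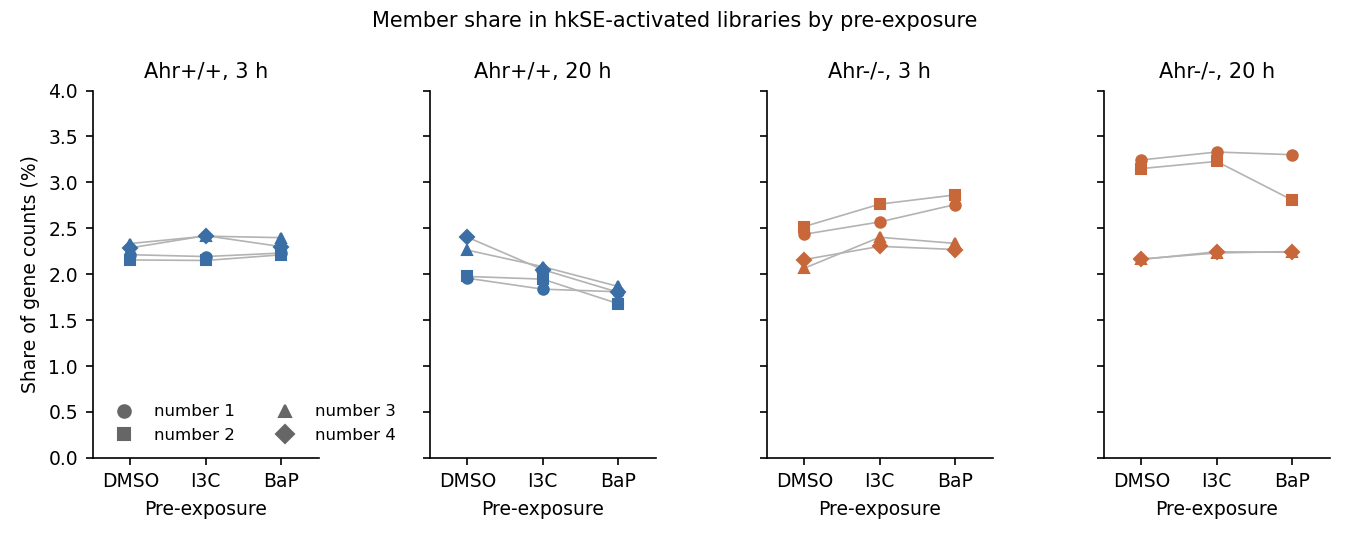
Share of all gene counts taken by the 80 members (y axis, percent, starting at 0) in the activated libraries after DMSO, I3C or BaP (x axis), 1 panel for each genotype and time. Points are libraries, and lines join libraries of the same replicate number. In Ahr+/+ BMMs at 20 h the BaP libraries, at 1.68 to 1.87%, lie below all DMSO libraries, and in the other panels BaP and DMSO libraries overlap.

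Other genes of ribosome production and translation are given with TMM scaling, on which the members and all genes had the medians given above. Of all genes 24.2% rose and 32.3% fell at 3 h in Ahr+/+ BMMs and 25.5% and 31.8% in Ahr-/- BMMs, and at 20 h 29.9% and 28.7%, and 28.3% and 26%. Among 50 genes of ribosome biogenesis, which process ribosomal RNA and assemble subunits, 20 rose and 4 fell at 20 h in Ahr+/+ BMMs and 36 rose and 2 fell in Ahr-/- BMMs. Their medians were 0.18 and 0.56 (-0.18 and 0.25 with total counts), where the members had -0.32 and -0.08. At 3 h 15 rose and 14 fell in Ahr+/+ and 22 rose and 4 fell in Ahr-/- BMMs. Without numbers 1 and 2, 32 rose and 2 fell at 20 h and 16 rose and 4 fell at 3 h in Ahr-/- BMMs. Rcl1, which cleaves the ribosomal RNA precursor, rose by 3.96 and 4.27 at 20 h.

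Among 22 translation factors whose mRNAs also carry the TOP motif, 11 rose and 1 fell in Ahr+/+ and 9 rose and 2 fell in Ahr-/- BMMs at 3 h, with medians of 0.28 and 0.25 that were -0.39 and -0.42 with total counts. At 20 h 1 rose and 8 fell in Ahr+/+ and 5 rose and 5 fell in Ahr-/- BMMs, with medians of -0.14 and -0.01. Without numbers 1 and 2, 0 rose and 6 fell at 20 h and 10 rose and 1 fell at 3 h in Ahr-/- BMMs. At 3 h Btf3, which guides nascent chains, rose by 0.80 and 0.70, the poly(A)-binding protein Pabpc1 by 0.72 and 0.68, and the initiation factor Eif4b fell by 0.65 and 0.70. At 20 h the histone chaperone Nap1l1 fell by 1.68 and 1.14 and Tpt1, the translationally controlled tumour protein, by 0.53 and 0.54.

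Of 23 tested regulators of mTORC1 and of TOP mRNAs, 7 rose and 11 fell in Ahr+/+ and 7 rose and 10 fell in Ahr-/- BMMs at 3 h, or 7 and 12 there without numbers 1 and 2. Larp1, the binding protein of TOP mRNAs, rose by 2.35 and 2.47 at 3 h and by 1.15 and 1.30 at 20 h. Sesn1, an inhibitor of mTORC1, fell by 5.47 and 5.14 at 3 h and by 4.96 and 4.41 at 20 h. Of the 4 ribosomal proteins outside the rule, Rack1, a scaffold on the small subunit, rose by 0.31 and 0.32 at 3 h with TMM but had -0.37 and -0.35 with total counts and did not pass in Ahr-/- BMMs without numbers 1 and 2, and Fau, which encodes Rps30 fused to a ubiquitin-like protein, fell by 0.45 at 20 h in Ahr+/+ BMMs.

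Mitochondrial ribosomal proteins, which build a separate ribosome, had 31 of 78 genes higher and 11 lower at 20 h in Ahr+/+ BMMs and 33 higher and 6 lower in Ahr-/- BMMs, with medians of 0.19 and 0.28 that were -0.18 and -0.03 with total counts. Without numbers 1 and 2, 32 were higher and 9 lower in Ahr-/- BMMs. Of 83 tested nuclear-encoded respiratory chain genes, also short and highly expressed, 20 rose and 5 fell at 3 h and 12 rose and 25 fell at 20 h in Ahr+/+ BMMs. Of 68 tested initiation, elongation and release factors, 32 rose and 12 fell at 3 h and 33 rose and 15 fell at 20 h in Ahr+/+ BMMs. With total counts the medians of both lists in Ahr+/+ BMMs were below 0 at both times.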

How the data were processed

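RNA of 64 BMM cultures, 4 per group, was sequenced as stranded, paired-end poly(A) libraries. The authors trimmed the reads with AdapterRemoval, aligned them with HISAT2 2.1.0 to mm10 and counted read pairs per gene of GENCODE M22 with htseq-count 0.9.1, and they deposited raw counts, 1 table per library, without normalization. The counting used strand and left out read pairs that match several places (12.4% to 15.8% of pairs), which lowers genes with near-identical pseudogenes. The 5 entries that name no gene were left out of library sizes, and 3.41% to 5.92% of pairs lay on no gene. The table of variance-stabilized values was not used.

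Gene positions and principal transcripts came from GENCODE M21 on GRCm38, and 300-base promoter sequences from RefSeq. Where a gene had several principal transcripts, the longest was used. Counts were fitted in R 4.3.3 with edgeR 4.0.16 (quasi-likelihood, TMM, 16 group means, all 64 libraries). All 80 members were among the 14537 genes that passed filterByExpr with a min.count of 10. Residual degrees of freedom were 48, and log2 CPM used a prior count of 2. P-values were adjusted after Benjamini-Hochberg over all genes tested in a comparison, with a threshold of 0.01, and interactions were differences of log2 fold changes. The script was tested on simulated counts. CPM per library is on the TMM scale.

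The scales by total counts and by the member total, and the fits without Ahr-/- numbers 1 and 2, were added after the data were seen. Other alternatives were relative log expression (RLE) size factors, TMM factors computed without the members, no filter on low counts, DESeq2 1.42.0, the series of the library identifiers as a covariate, the replicate number as a block and leaving out each library. The members and the gene lists were chosen with earlier results of these data known. Members named are the 5 highest and 5 lowest in a comparison or in CPM per kb and a fixed list, and any other member named was picked with its values in view. Some members that meet this rule are not reported here.

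The methods of the study give 4 mice per genotype, and replicate numbers were taken as these mice, so that libraries of 1 number share a mouse. As a check, it was asked whether libraries of 1 number deviate together from the means of their groups, in pairs of libraries of the same time. The correlation was above 0.1 in 45 of 48 such pairs in Ahr-/- (median 0.407, lowest -0.248) and in 32 of 48 in Ahr+/+ BMMs (median 0.146, lowest -0.0937). Pairs across 3 h and 20 h were not looked at, although the block also joins the libraries of 1 number across the times. At these depths counting error is small beside the spread between libraries.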

Additional observations from a re-analysis of the deposited data

Results flagged for a closer look

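A library far from the other 3 was looked for in 104 groups of 4 values. These were the share of all counts on the members in each group, and single members of the report in the DMSO groups. In all 5 were found, about as many as the 1 in 20 that chance gives, and all were for single members. In percent of member counts, Rpl36a was at 0.446 in unactivated Ahr+/+ library number 2 at 20 h, where the others were at 0.497 to 0.505, and Rpl7l1 was at 0.324 in number 4 of that group, where the others were at 0.368 to 0.376. Rpl19 was at 1.98 in number 1 of the same group, against 2.09 to 2.098, and at 2.34 in the activated Ahr-/- library number 2 at 3 h, against 2.42 to 2.44. Rps6 was at 2.06 in the activated Ahr-/- library number 1 at 20 h, against 1.65 to 1.71.

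The share of all counts taken by the members went in opposite directions in pairs of comparisons, in all 4 pairs of same-numbered libraries each. With I3C at 20 h the ratio to DMSO was 0.921 in Ahr+/+ and 1.03 in Ahr-/- BMMs. The Ahr-/- groups overlapped, at 2.23 to 3.33% after I3C and 2.16 to 3.24% after DMSO. With BaP in Ahr+/+ BMMs it was 1.02 at 3 h and 0.833 at 20 h. These differences in the share were not tested. For single members, the genotype difference in the effect of I3C at 20 h had a median of 0.17. In edgeR's test of it 0 members had an unadjusted p below 0.05, against 1.97% of all genes.

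Tests of a difference between effects passed for 44 of 80 members for the response to hk S.E. at 20 h against 3 h in Ahr+/+ BMMs. All were lower, against 21.3% of all genes. In Ahr-/- BMMs this test passed for 8 of 80, all lower, against 19.4% of all genes. For the response at 20 h in Ahr-/- against Ahr+/+ BMMs 1 passed, Rps2, where 4.42% of all genes passed.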

How the results depend on the processing

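With RLE size factors 30 members passed for hk S.E. at 3 h in Ahr+/+ and 26 in Ahr-/- BMMs, 19 for 20 h against 3 h with hk S.E. in Ahr-/- BMMs and 22 for the difference between the times there, against 56.6%, 57.4%, 55.2% and 43.3% of all genes. DESeq2 gave 30, 27, 21 and 23 for these, 14 for hk S.E. at 20 h in Ahr-/- BMMs, 2 for the genotype difference in the response at 20 h, 1 for 20 h against 3 h without activation and 1 for BaP at 20 h, the last 2 in Ahr+/+ BMMs. Without a filter on low counts 5 passed for 20 h against 3 h with hk S.E. in Ahr-/- BMMs and 0 for the genotype difference at 20 h, against 28.9% and 1.63% of all genes then tested. With the identifier series as a covariate 3 passed between the genotypes with hk S.E. at 20 h, 2 for 20 h against 3 h with hk S.E. in Ahr-/- BMMs and 2 for the genotype difference at 20 h, against 3.39%, 46.4% and 3.56% of all genes.

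The replicate number as a block raised the counts: for hk S.E. to 41 and 52 in Ahr+/+ and 37 and 30 in Ahr-/- BMMs at 3 h and 20 h, for 20 h against 3 h to 13 without and 64 with hk S.E. in Ahr+/+ and to 6 and 30 in Ahr-/- BMMs, for the difference between the times to 67 and 40, for the genotype difference at 20 h to 11, for BaP in Ahr+/+ BMMs at 20 h to 8 and for the genotype difference in the effect of BaP at 20 h to 1. With hk S.E. at 3 h, 27.4% and 28.2% of all genes rose with the block in Ahr+/+ and Ahr-/- BMMs. At 20 h 33.7% rose and 32.3% fell in Ahr+/+, and 32.5% and 29.5% in Ahr-/- BMMs. At 20 h against 3 h without hk S.E., 7.15% and 6.79% rose. For BaP in Ahr+/+ BMMs at 20 h 1.02% fell. For the genotype difference in the effect of BaP 0.117% were higher. Relative to the member total at 3 h, 13 passed with the block and 9 with DESeq2 in Ahr+/+ BMMs, and 5 with each in Ahr-/- BMMs, of which 2 rose and 3 fell with the block. The other counts here are given without a share of all genes and are no result about the members. No paired analysis was possible for the genotypes because their libraries come from different mice.

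With total counts as the scale 51 members passed for hk S.E. at 3 h in Ahr+/+ and 53 in Ahr-/- BMMs, nearly all lower, and 66 and 46 at 20 h. Of all genes 59.1% and 59% fell on this scale at 3 h, and 43.8% and 38.6% at 20 h. Between the genotypes with hk S.E. at 20 h 16 passed and 4 for the difference in the response. For 20 h against 3 h with hk S.E. 16 passed in Ahr+/+ and 23 in Ahr-/- BMMs, for the difference between the times 13 and 2, and 1 each for the times without activation and for BaP at 20 h in Ahr+/+ BMMs. Shares of all genes for the times with hk S.E. and for the difference between the times are given above. The counts for the genotypes, for the times without activation and for BaP are given without one. Scaled to the counts of all other genes, the medians with hk S.E. at 3 h were -0.42 (Ahr+/+) and -0.44 (Ahr-/-), and at 20 h -0.70 and -0.40. Those of 20 h against 3 h with hk S.E. were -0.042 and 0.22, and those of the difference between the times -0.31 and -0.0072. Rps20, Rps3a1 and Rps24 in Ahr+/+ BMMs (-0.22, -0.17 and -0.11) and Rps3a1 and Rpl27 in Ahr-/- BMMs (-0.28 and -0.23) turned at 3 h, and Rpl7l1 in Ahr+/+ BMMs at 20 h (-0.088).

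Without the Ahr-/- libraries numbered 1 and 2, 26 passed for hk S.E. at 20 h, 14 between the genotypes without and 7 with hk S.E., 50 for 20 h against 3 h with hk S.E., 30 for the difference between the times and 2 for the genotype difference at 20 h. Of all genes 53.9%, 13.2%, 22.3%, 54.1%, 43.5% and 3.74% passed in these. The medians were -0.21 and -0.10 between the genotypes at 20 h without and with hk S.E., and 0.028 and -0.36 for 20 h against 3 h.

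Leaving out 1 library, the count for hk S.E. in Ahr+/+ BMMs at 3 h ran from 12 to 29 (without activated number 1), and it reached 15 in Ahr-/- BMMs at 20 h (without activated number 2). Between the genotypes with hk S.E. at 20 h it ran from 1 without activated Ahr-/- number 2 to 14 without number 3. For 20 h against 3 h with hk S.E. in Ahr-/- BMMs it ran from 4 without number 3 to 15 without number 2 of the activated 20 h libraries, and for the difference between the times from 4 without unactivated number 1 to 17 without activated number 2. The genotype difference at 20 h ran from 0 without unactivated Ahr+/+ number 1 to 4 without activated Ahr+/+ number 4. For the times without activation in Ahr+/+ BMMs it reached 1 without number 3 at 3 h, and for BaP in Ahr+/+ BMMs at 20 h 1 without DMSO number 1. Rps15, Rps16 and Rpl19 in Ahr-/- BMMs at 20 h and Rps20 in Ahr+/+ BMMs at 3 h did not pass without 1 of the libraries (adjusted p up to 0.0451, 0.0516, 0.089 and 0.016). Shares over all genes were not kept for these fits.

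The cause of these changes was not tested. Of the member counts under an alternative, 225 stayed within 1.5 times the reported count in the same direction, 56 did not and 4 changed direction, and of those relative to the member total 14, 3 and 1. Comparisons in which no member passed under either setting were scored as unchanged. Many comparisons were of this kind, so that the 225 is no measure of stability where members did pass. Per counts of all other genes, the share moved by less than 1 SD in 16 of 16 groups, and a minimum of 10 CPM removed no member. No spike-in was used here, so that levels per cell are not given. Sequence shared with pseudogenes limits single members, and 4 mice per genotype limit the genotype comparisons, for which the identifier series at 20 h cannot be told apart from the genotype.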
